A study of Mus musculus with 18 samples.

Results

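The C1q-like proteins, the cerebellins and the neuronal pentraxins are secreted or membrane-tethered proteins that neurons release at synapses, and their transcripts are described here in the striatum of zQ175 mice, a Huntington's disease (HD) model. The 10 genes are C1ql1, C1ql2, C1ql3, Cbln1, Cbln2, Cbln4, Adgrb3, Nptx1, Nptx2 and Nptxr. They were taken from the deposited count table by gene symbol, and the families were selected on levels of their members in these same libraries, so the differences between zQ175 mice and the other genotypes are given as descriptions and are not independent evidence. The study itself named C1ql3 for its difference between zQ175 and zQ175:CK2a'(+/-) mice, so its values in that comparison are descriptions and no p of it is given there. The table holds 55421 genes, of which 20914 passed the filter on low counts, and 10 of the 10 organizer genes were among these.

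The study asked how lowering CK2α', a catalytic subunit of protein kinase CK2 encoded by Csnk2a2, changes the striatal transcriptome of HD mice. Each library came from the dissected, flash-frozen striatum of 1 mouse aged 12 to 14 months, labelled C57BL/6. WT mice (n = 5) carried normal Htt and both Csnk2a2 alleles. zQ175 mice (n = 5) were heterozygous for a full-length Htt knock-in allele with an expanded CAG repeat, expressed from the Htt locus in every cell that uses the gene. CK2a'(+/-) mice (n = 3) lacked 1 Csnk2a2 allele throughout the body, and zQ175:CK2a'(+/-) mice (n = 5) combined both alleles. Per the study's methods the Csnk2a2 allele came from a mixed 129/SvEv-C57BL/6J background and was then bred with the other lines over many generations, so that all mice are described as C57BL/6J. The proportion of females differed between the groups, while the labels give the sex of no library. Library totals ran from 13612381 to 22702547 counts.

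C1q-like proteins (C1QL) are secreted by presynaptic neurons. They bind the adhesion G protein-coupled receptor BAI3, the product of Adgrb3, and C1QL2 and C1QL3 also recruit kainate receptors at hippocampal mossy fibre synapses. Cerebellins form a bridge across the cleft between presynaptic neurexins and postsynaptic GluD receptors, and CBLN1 is best known from the cerebellum. Neuronal pentraxins cluster AMPA receptors at excitatory synapses: NP1 (Nptx1) and NP2 (Nptx2, an activity-regulated gene also called Narp) are secreted, and the pentraxin receptor (Nptxr) anchors them to the membrane. Much of the excitatory input to the striatum comes from cortex and thalamus, whose cell bodies lie outside it.

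The promoter table held 4 of the 10 genes, and 2 of those windows are shown because C1ql2 was the member called between zQ175 and WT mice and Cbln4 one of the 3 cerebellins that stood high in a single zQ175 library. Each window is the 250 bases before the gene start, from RefSeq on GRCm38.p6, read 5′ to 3′ on the strand of the gene. The C1ql2 window is chr1:120340332-120340581 on the plus strand and the Cbln4 window is chr2:172043467-172043716 on the minus strand. Capitals mark matches, on either strand, to the core of the cAMP response element (TGACG), the E-box (CANNTG), the EGR core (GCGTGGG), the GC box (GGGCGG) or the CCAAT box (CCAAT).
C1ql2: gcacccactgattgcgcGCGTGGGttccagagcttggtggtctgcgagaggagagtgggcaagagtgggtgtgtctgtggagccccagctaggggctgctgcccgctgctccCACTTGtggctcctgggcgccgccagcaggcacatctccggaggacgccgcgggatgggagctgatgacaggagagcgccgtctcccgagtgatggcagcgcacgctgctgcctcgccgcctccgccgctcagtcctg
Cbln4: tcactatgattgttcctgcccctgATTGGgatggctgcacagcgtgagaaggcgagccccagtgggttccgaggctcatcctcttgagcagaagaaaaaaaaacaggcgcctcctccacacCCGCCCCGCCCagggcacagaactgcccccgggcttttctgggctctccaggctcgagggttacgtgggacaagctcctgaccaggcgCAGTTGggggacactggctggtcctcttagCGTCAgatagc
The C1ql2 window held 1 EGR core, which starts 233 bases before the gene, and 1 E-box. The Cbln4 window held 2 GC boxes that overlap by 1 base, 1 CCAAT box, 1 E-box and 1 cAMP response element core. Over 32851 promoter windows of the same length, 4.30% held the EGR core, 66.2% the E-box, 32.7% the GC box, 33.8% the CCAAT box and 17.8% the cAMP response element core. These matches describe letters only, and no binding was measured.

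Csnk2a2, the gene deleted in the CK2α' lines, followed the labels. It lay between 29.4 and 35.0 CPM (counts per 1000000 after TMM scaling of library sizes) in WT and between 32.0 and 37.5 in zQ175 libraries. It lay between 14.7 and 18.02 CPM in CK2a'(+/-) and between 15.8 and 19.9 in zQ175:CK2a'(+/-) libraries.

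2 zQ175 libraries stood apart for the organizer genes, and results that rest on them are given below with and without them. zQ175 replicate 1 held the highest level of 3 of the 10 genes among the 18 libraries (Cbln1, Cbln2 and Cbln4), and 10.7% of all genes tested were highest in it. zQ175 replicate 5 held the highest level of 4 (C1ql2, C1ql3, Nptx1 and Nptxr), beside 7.76% of all genes tested. Marker genes of regions next to the striatum were also high in 1 or both of them. The summed level of 8 thalamus markers was 1209 CPM in zQ175 replicate 1, where 8 of the 8 were highest. It was 43.7 to 555 CPM in the other 17 libraries, and 79.1 in zQ175 replicate 5. The summed level of 10 cortical excitatory neuron markers was 402 CPM in zQ175 replicate 5 and 304 in replicate 1. Of the 10, 8 were highest in replicate 5. The other 2, Cux2 and Rorb, were highest in replicate 1, at 100 and 122 CPM. The sum was 147 to 210 CPM in the other 3 zQ175 libraries and 102 to 174 in WT. It was 89.6 to 215 CPM in CK2a'(+/-) and 99.8 to 195 in zQ175:CK2a'(+/-). For 6 hippocampal markers it was 163 CPM in zQ175 replicate 5, where 6 of the 6 were highest, 114 in replicate 1 and 39.8 to 93.6 elsewhere. Lct, one of the hippocampal markers, was at 9.57 CPM in zQ175 replicate 5 and had no count in 11 of the 18 libraries. The 13 striatal projection neuron markers summed to 1963 CPM in zQ175 replicate 1, to 3372 to 3937 in the other 4 zQ175 libraries and to 3494 to 7984 in WT. Among these, Drd1 and Ppp1r1b were counted in each of the 18 libraries. In bulk tissue, fewer cells of a type and less RNA per cell cannot be told apart.

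Of the other marker lists, the ranges over the 18 libraries are given. Choroid plexus markers summed to between 12.4 and 3143 CPM, and to at most 22.4 CPM in zQ175 libraries. Markers of the claustrum and deep insular cortex summed to 38.8 to 65.2 CPM, the highest being zQ175 replicate 5. Their medians were 49.2 CPM in WT, 58.4 in zQ175, 39.4 in CK2a'(+/-) and 42.8 in zQ175:CK2a'(+/-) libraries. Striatal interneuron markers summed to 88.4 to 237 CPM, astrocyte markers to 2673 to 4081 and oligodendrocyte markers to 3281 to 7088. Oligodendrocyte precursor markers summed to 133 to 175 CPM and microglia markers to 148 to 206.

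Levels of different genes were compared per kilobase of the deposited gene length. Nptxr was the most abundant at 14.2 ± 7.04 CPM per kb (SD, n = 18), followed by Adgrb3 at 9.09 ± 1.03. Nptxr exceeded Adgrb3 in 16 of 18 libraries, and Adgrb3 exceeded the next gene in 17 of 18. Nptx1 (6.27 ± 5.47 CPM per kb) and Nptx2 (5.53 ± 1.28) could not be ordered, since Nptx1 was the higher in 9 of 18 libraries. C1ql1 (2.72 ± 0.766 CPM per kb) and C1ql3 (2.49 ± 2.25) overlapped as well, C1ql1 being higher in 12 libraries. The cerebellins and C1ql2 formed the low end and were not separable from each other. Cbln2 averaged 0.950 ± 1.62 CPM per kb, Cbln4 0.892 ± 0.997, Cbln1 0.749 ± 1.04 and C1ql2 0.700 ± 1.15. In those 4 genes, in C1ql3 and in Nptx1 the SD was close to or above the mean. The pentraxin genes and Adgrb3 thus lay above the C1q-like and cerebellin genes in mean level per length. The level of C1ql3 per length is uncertain, since it shares exon length with other genes, as given below.

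**Figure D1:**
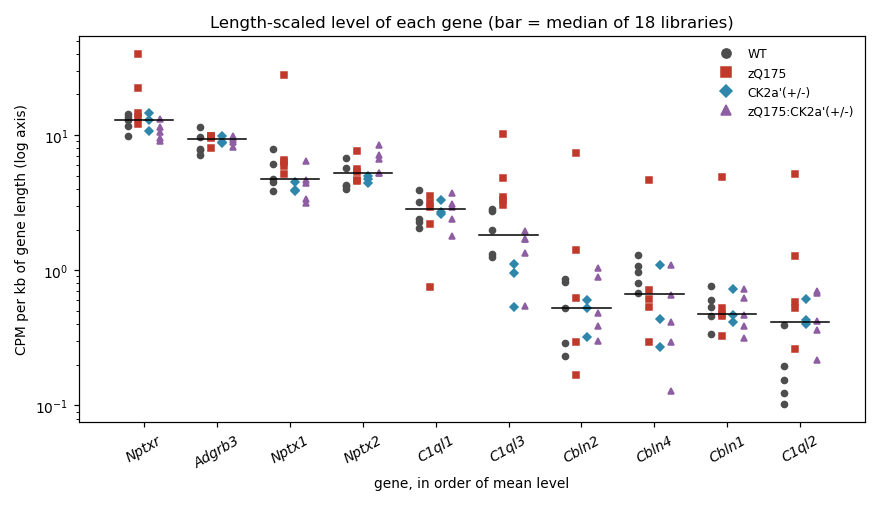
Level of each gene in CPM per kb of gene length (log axis) in the 18 libraries, ordered by mean, with the median as a bar. Nptxr and Adgrb3 lie at the top (means 14.2 and 9.09), while Cbln2, Cbln4, Cbln1 and C1ql2 lie below 1 on average, and single zQ175 libraries stand far above the rest for 7 genes.

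C1ql3 (chr2:13003457-13011806, GRCm38, minus strand) was higher in zQ175 striatum than in each other genotype, library by library. In WT libraries it was at 3.34, 6.93, 3.20, 7.24 and 5.05 CPM. In zQ175 libraries 1 to 5 it was at 12.3, 7.65, 8.86, 8.38 and 26.0 CPM. It was at 1.36, 2.41 and 2.80 CPM in CK2a'(+/-) libraries and at 4.95, 4.31, 4.29, 1.38 and 3.43 CPM in zQ175:CK2a'(+/-) libraries. The lowest zQ175 library, replicate 2, lay above the highest of the 13 others. C1ql3 was the 1 member with this arrangement, which 0.0717% of all genes tested (15 genes) showed, and nothing is read from this share, since C1ql3 was chosen on part of it.

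The fitted difference of C1ql3 between zQ175 and WT was 1.29 on the log2 scale (SE 0.351), or 2.45-fold, with an adjusted p of 0.105 by edgeR's quasi-likelihood test, just outside the threshold of 0.1. DESeq2 gave 1.30 (SE 0.345, adjusted p = 0.0166). Without zQ175 replicate 5 the edgeR value was 0.85 (SE 0.310, adjusted p = 0.271), and without replicates 1 and 5 it was 0.68 (SE 0.334, adjusted p = 0.498). Against zQ175:CK2a'(+/-), zQ175 libraries averaged 12.6 ± 7.67 CPM (SD, n = 5) and zQ175:CK2a'(+/-) libraries 3.67 ± 1.39 (n = 5). That difference was 1.79 on the log2 scale (SE 0.361) and 1.18 (SE 0.336) without zQ175 replicates 1 and 5, with 8.29 ± 0.608 CPM in the 3 zQ175 libraries that remained. Both comparisons share the zQ175 libraries. zQ175:CK2a'(+/-) libraries overlapped with WT (difference -0.50, SE 0.360, adjusted p = 0.732).

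The level of C1ql3 moved with the cortical excitatory markers. Marker levels in correlations and covariates are the mean log2 CPM of the listed genes that passed the filter. These were 9 of the 10 cortical, 4 of the 6 hippocampal and 8 of the 8 thalamus markers. Across the 18 libraries, Pearson's r of the log2 CPM of C1ql3 with the cortical marker level was 0.86 and Spearman's rho was 0.85. Over the 16 libraries without zQ175 replicates 1 and 5, r was 0.79. The points share the genotypes and library depth, so this is a description. With that marker level as a covariate the difference between zQ175 and WT was 0.18 (SE 0.332), and that between zQ175 and zQ175:CK2a'(+/-) was 0.63 (SE 0.343). The part of the marker level in these differences was not tested further. The genes whose log2 CPM was most like that of C1ql3 over the 18 libraries were Armcx4 (rho = 0.87, r = 0.82), the unnamed gene Gm37517 (rho = 0.86, r = 0.87) and Satb1 (rho = 0.82, r = 0.87). C1ql3 shares 61.0% of its exon length with Gm37811 and 3.16% with Gm37824, both on the opposite strand, so its counts are uncertain to the extent that strand was not used. These 2 genes held at most 13 and 19 counts in a library.

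C1ql2 (chr1:120340582-120343174, plus strand) was the 1 of 10 organizer genes called between zQ175 and WT mice at an adjusted p under 0.1, beside 1.10% of all genes tested (230 genes, 81 higher and 149 lower in zQ175). In WT libraries it was at 0.249, 0.391, 0.204, 0.311 and 0.788 CPM, from 3 to 17 counts. In zQ175 libraries 1 to 5 it was at 2.53, 0.521, 1.17, 1.06 and 10.3 CPM, from 9 to 192 counts. The groups overlapped at 1 library on each side. The difference was 2.97 on the log2 scale (SE 0.657, adjusted p = 0.0588), or 7.82-fold. Without WT replicate 1 it was 2.82 (SE 0.719, adjusted p = 0.147) and without WT replicate 3 it was 2.83 (SE 0.715, adjusted p = 0.167), so the call rested on these libraries too. Without zQ175 replicate 5 it was 1.73 (SE 0.519, adjusted p = 0.175), and without replicates 1 and 5 it was 1.20 (SE 0.555, adjusted p = 0.468). With the level of Xist, a transcript of females, as a covariate it was 2.56 (SE 0.721, adjusted p = 0.127). With the cortical marker level as a covariate it was 1.16 (SE 0.712, adjusted p = 0.679). Over the 18 libraries its r was 0.78 with the hippocampal markers (rho = 0.42) and 0.66 with the cortical ones (rho = 0.34), and 0.22 and 0.17 over the 16 libraries.

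In the groups with 1 Csnk2a2 allele the differences of C1ql2 from WT did not pass the test. It was at 0.859, 1.23 and 0.801 CPM in CK2a'(+/-) libraries and at 1.35, 0.431, 1.41, 0.849 and 0.721 CPM in zQ175:CK2a'(+/-) libraries. The 3 CK2a'(+/-) libraries lay above the 5 WT libraries by a margin of 0.801 against 0.788 CPM, an arrangement shown by 1.43% of all genes tested, while 2 of the 5 zQ175:CK2a'(+/-) libraries lay below the highest WT library. The fitted difference was 1.28 (SE 0.737, adjusted p = 0.999) for CK2a'(+/-) and 1.26 (SE 0.664, adjusted p = 0.586) for zQ175:CK2a'(+/-), both against the same WT libraries. Against zQ175:CK2a'(+/-), zQ175 was higher by 1.70 (SE 0.612, adjusted p = 0.637), and the value was -0.07 (SE 0.548) without zQ175 replicates 1 and 5. The genes most like C1ql2 were Gpr22 (rho = 0.85, r = 0.92), Eprs (rho = 0.84, r = 0.56) and Dnajc6 (rho = 0.82, r = 0.62), over 18 libraries.

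C1ql1 (chr11:102939264-102946688, minus strand) showed no difference between the genotypes beyond its spread. It was at 3.04, 3.35, 5.79, 3.51 and 4.68 CPM in WT and at 5.25, 4.64, 1.11, 3.23 and 4.36 in zQ175 libraries. The CK2a'(+/-) libraries held 4.85, 3.85 and 4.00 CPM and the zQ175:CK2a'(+/-) libraries 4.33, 3.52, 4.53, 2.65 and 5.47. The ranges of the 4 groups overlapped, and the lowest level, 1.11 CPM from 18 counts, was zQ175 replicate 3. The difference between zQ175 and WT was -0.12 (SE 0.303, adjusted p = 0.898).

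The cerebellins were low in the striatum and high in 1 library. Cbln1 (chr8:87468405-87472609, minus strand) was at 1.84, 1.40, 1.63, 2.31 and 1.02 CPM in WT and at 14.8, 0.985, 1.599, 1.45 and 1.40 in zQ175 libraries 1 to 5. Cbln2, on chromosome 18, was at 2.49, 0.670, 2.38, 0.844 and 1.53 CPM in WT and at 21.2, 1.80, 4.06, 0.857 and 0.484 in zQ175. Cbln4 (chr2:172036233-172043466, minus strand) was at 3.79, 1.95, 3.13, 2.35 and 2.83 CPM in WT and at 13.5, 2.09, 1.78, 0.857 and 1.56 in zQ175. In each of these genes zQ175 replicate 1 was the highest of the 18 libraries and the range of the other 4 zQ175 libraries overlapped with that of WT. For Cbln4, 3 of those 4 lay below the lowest WT library, and for Cbln2, replicate 3 lay above the highest. In the 8 libraries with 1 Csnk2a2 allele Cbln1 ran from 0.962 to 2.23 CPM, Cbln2 from 0.861 to 3.00 and Cbln4 from 0.372 to 3.18.

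The fitted cerebellin differences followed that library. Between zQ175 and WT they were 1.31 for Cbln1 (SE 0.577, adjusted p = 0.319), 1.86 for Cbln2 (SE 0.711, adjusted p = 0.241) and 0.51 for Cbln4 (SE 0.603, adjusted p = 0.762). Without zQ175 replicate 1 they were -0.27 for Cbln1 (SE 0.345), 0.18 for Cbln2 (SE 0.534) and -0.83 for Cbln4 (SE 0.479). Against zQ175:CK2a'(+/-), the values for Cbln1, Cbln2 and Cbln4 were 1.42 (SE 0.584), 1.67 (SE 0.708) and 1.41 (SE 0.628) with all libraries. Without replicate 1 they were -0.17 (SE 0.348), -0.01 (SE 0.533) and 0.06 (SE 0.485).

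The cerebellins were also set beside the thalamus markers. For Cbln2, r with the mean log2 CPM of that list was 0.70 and rho 0.65 over 18 libraries, and r was 0.56 over the 16 without zQ175 replicates 1 and 5. For Cbln1 r was 0.37 and fell to -0.22 without them, and for Cbln4 it was 0.49 and 0.26. With the thalamic marker level as a covariate the difference of Cbln2 between zQ175 and WT was 0.49 (SE 0.575), and with the cortical one it was 3.64 (SE 0.725, adjusted p = 0.426). For Cbln1 these values were 0.66 (SE 0.588) and 2.101 (SE 0.661), and for Cbln4 they were -0.33 (SE 0.546) and 1.57 (SE 0.700). The genes most like Cbln2 were Adra2a (rho = 0.85, r = 0.59), Vwc2l (rho = 0.81, r = 0.88) and Grik1, a kainate receptor subunit (rho = 0.80, r = 0.74). Those most like Cbln1 were the unnamed genes Gm12987 (rho = 0.78) and Gm6851 (rho = 0.76), followed by L3mbtl4 (rho = 0.75). For Cbln4 they were Lhfpl5, Slc13a5 and Palm2 (each rho = 0.79).

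**Figure D2:**
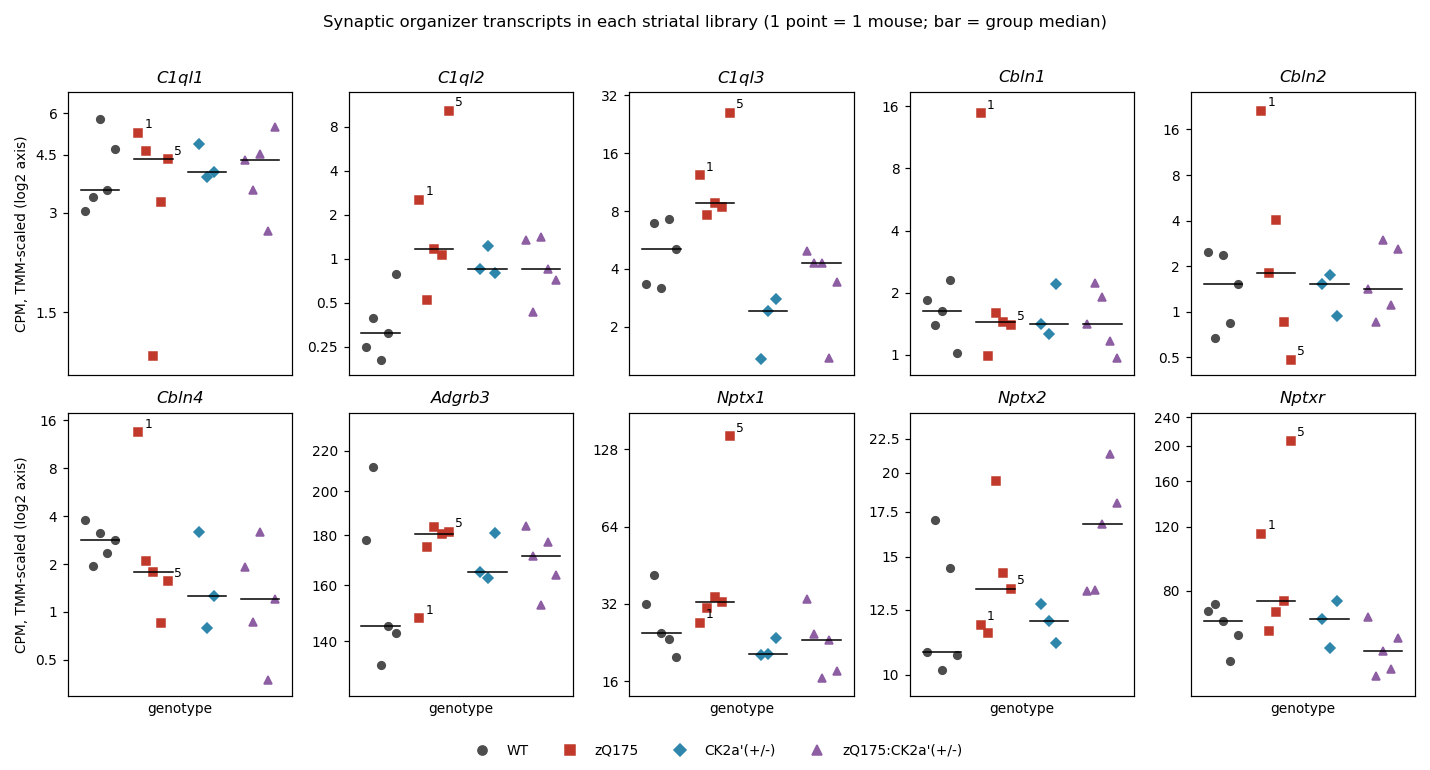
TMM-scaled CPM of each gene in each library (log2 axis), 1 point for each mouse, with the group median as a bar and zQ175 replicates 1 and 5 numbered. C1ql3 is higher in the 5 zQ175 libraries than in the 13 others, replicate 5 is highest for C1ql2, C1ql3, Nptx1 and Nptxr, and replicate 1 for the 3 cerebellins.

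Adgrb3 (chr1:25067476-25829707, minus strand), the receptor of the C1q-like proteins, stayed within a narrow range. It was at 178, 212, 132, 145 and 143 CPM in WT and at 148, 175, 183, 180.4 and 182 in zQ175 libraries. It was at 165, 163 and 181 CPM in CK2a'(+/-) and at 184, 171, 153, 177 and 164 in zQ175:CK2a'(+/-) libraries. WT held both the lowest and the highest library, so the groups overlapped. The difference between zQ175 and WT was 0.10 (SE 0.104, adjusted p = 0.723), and that between zQ175 and zQ175:CK2a'(+/-) was 0.03 (SE 0.104, adjusted p = 0.983). Its level fell where the thalamus markers were high (r = -0.67, rho = -0.63, n = 18), and r was -0.62 over 16 libraries. The genes most like it were Tnik, Scn2a, a neuronal sodium channel, and Nbea, with rho of 0.91, 0.90 and 0.89.

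Nptx1 (chr11:119538719-119547753, minus strand) was at 31.9, 41.4, 24.7, 23.4 and 20.0 CPM in WT and at 27.0, 30.9, 34.0, 32.7 and 144 in zQ175 libraries 1 to 5. It was at 20.3, 20.4 and 23.6 CPM in CK2a'(+/-) and at 33.4, 24.3, 16.4, 23.1 and 17.6 in zQ175:CK2a'(+/-) libraries. zQ175 replicate 5 held more than each other library, while the other 4 zQ175 libraries lay inside the WT range. The difference between zQ175 and WT was 0.93 (SE 0.359, adjusted p = 0.248), and without replicate 5 it was 0.14 (SE 0.194). The difference between zQ175 and zQ175:CK2a'(+/-) was 1.23 (SE 0.363, adjusted p = 0.523), and 0.44 (SE 0.195) without replicate 5. Nptx1 moved with the cortical excitatory markers (r = 0.84, rho = 0.64, n = 18), and r was 0.57 over the 16 libraries. With the cortical marker level as a covariate the difference from WT was -0.59 (SE 0.300, adjusted p = 0.629), and with the thalamic one, chosen after seeing the data, it was 1.06 (SE 0.265, adjusted p = 0.0595). Among the 3 genes most like it were Vxn (rho = 0.85, r = 0.84) and Suv39h1 (rho = 0.81, r = 0.56).

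Nptxr (chr15:79786351-79804766, minus strand) was at 70.6, 73.7, 66.2, 51.1 and 60.4 CPM in WT and at 115, 62.1, 69.9, 75.0 and 206 in zQ175 libraries 1 to 5. It was at 67.1, 55.5 and 75.1 CPM in CK2a'(+/-) and at 67.9, 46.5, 54.5, 48.8 and 59.4 in zQ175:CK2a'(+/-) libraries. zQ175 replicates 5 and 1 were the highest of the 18 libraries, and the other 3 zQ175 libraries overlapped with WT. The difference between zQ175 and WT was 0.72 (SE 0.233, adjusted p = 0.165), and 0.10 (SE 0.132) without both. The difference between zQ175 and zQ175:CK2a'(+/-) was 0.93 (SE 0.235, adjusted p = 0.419), and 0.31 (SE 0.132) without both. Its r with the cortical excitatory markers was 0.74 and rho 0.46 over 18 libraries, with r of 0.31 over 16. With the hippocampal markers r was 0.74 as well, and -0.34 over the 16 libraries. With the cortical marker level as a covariate the difference from WT was 0.0525 (SE 0.265), and with the thalamic one it was 0.78 (SE 0.220, adjusted p = 0.0923). The genes most like it were Tmem215 (rho = 0.85), Minar2 and Ptpru (each rho = 0.80). Nptxr shares 17.2% of its exon length with Npcd on the same strand, which held at most 13 counts in a library, so reads over those exons cannot be assigned to either gene.

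Nptx2 (chr5:144545902-144557478, plus strand) had another pattern, with its highest median in zQ175:CK2a'(+/-) mice. It was at 10.8, 17.03, 10.1, 14.4 and 10.7 CPM in WT and at 11.9, 11.5, 19.4, 14.2 and 13.4 in zQ175 libraries. It was at 12.7, 12.0 and 11.1 CPM in CK2a'(+/-) and at 13.3, 13.4, 16.8, 21.3 and 18.03 in zQ175:CK2a'(+/-) libraries. The 5 zQ175:CK2a'(+/-) libraries lay above the 3 CK2a'(+/-) libraries, an arrangement shown by 3.86% of all genes tested, and overlapped with WT and zQ175. The difference was 0.47 (SE 0.203, adjusted p = 0.472) against CK2a'(+/-) and 0.39 (SE 0.173, adjusted p = 0.497) against WT. Neither zQ175 replicate 1 nor replicate 5 was high for Nptx2, and its r with the cortical excitatory markers was 0.05 (rho = 0.21, n = 18). The genes most like it were Wtap, Phf3 and Ptpn12, with rho of 0.85, 0.83 and 0.82.

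Over the 10 genes together, the median difference between zQ175 and WT was 0.82 on the log2 scale, against 0.00 over all genes tested, and it was 0.18 without zQ175 replicates 1 and 5. At an unadjusted p under 0.05 there were 6 of 10, beside 13.9% of all genes, and 1 of 10 without those libraries, beside 10.2%. By DESeq2, 2 of the 10 genes were called in that comparison (C1ql2 and C1ql3), beside 5.26% of the genes with an adjusted p. DESeq2 gave Cbln1 no adjusted p. In 1 of the 10 genes, C1ql3, the 5 zQ175 libraries lay above the 5 WT libraries, beside 1.26% of all genes tested. Between zQ175 and zQ175:CK2a'(+/-) the median was 1.32, against 0.01 over all genes, and 0.0730 without those libraries. In that comparison 0 of the 9 genes other than C1ql3 were called by edgeR, beside 0.0143% of all genes. Their unadjusted count was 6 of 9, beside 6.27% of all genes, and 2 of 9 (Nptx1 and Nptxr) without those libraries, beside 4.50%. DESeq2 called 0 of the 8 that it gave an adjusted p, Cbln1 having none, beside 0.145%. C1ql3, chosen for this comparison, is left out of these counts but is part of the median. These 2 comparisons share the zQ175 libraries, replicates 1 and 5 included.

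**Figure D3:**
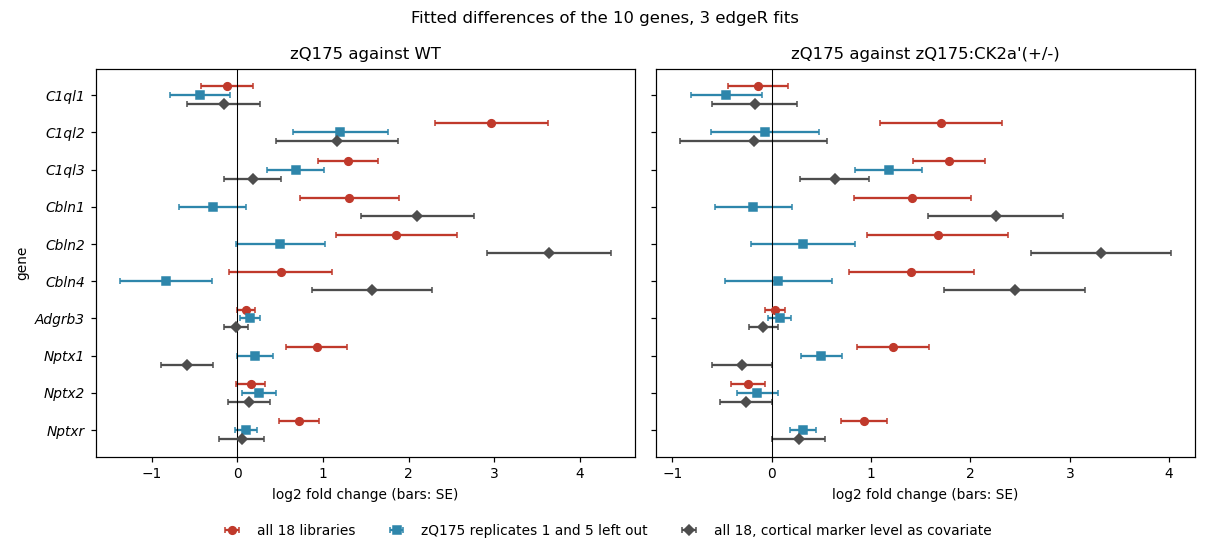
Fitted log2 fold changes (points) with their standard errors (bars) for the 10 genes in zQ175 against WT (left) and against zQ175:CK2a'(+/-) (right), in 3 edgeR fits. Leaving out zQ175 replicates 1 and 5 moves C1ql3 from 1.29 to 0.68 against WT and from 1.79 to 1.18 against zQ175:CK2a'(+/-), and moves the cerebellins, Nptx1 and Nptxr toward or past 0.

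In the other comparisons edgeR called 0 of the 10 genes. For zQ175:CK2a'(+/-) against WT this stood beside 0.0143% of all genes tested, with a median of -0.05 over the 10 genes, 1 gene (Nptx2) at an unadjusted p under 0.05, beside 9.13% of all genes, and no gene above WT in each library, beside 0.937%. For CK2a'(+/-) against WT it stood beside 0.0143%, with 1 gene at an unadjusted p under 0.05, beside 4.48%. That gene was C1ql3, whose 3 CK2a'(+/-) libraries lay below the 5 WT libraries, an arrangement shown by 1.76% of all genes. Its difference was -1.24 (SE 0.441, adjusted p = 0.999). For zQ175:CK2a'(+/-) against CK2a'(+/-) the count stood beside 0.593% and again 1 gene, Nptx2, had an unadjusted p under 0.05, beside 9.19%. For the interaction of both alleles it stood beside 0.00478%, and 2 genes had an unadjusted p under 0.05, beside 5.39%. These were C1ql2 (-2.98, SE 0.955, adjusted p = 0.832) and Nptxr (-0.96, SE 0.354, adjusted p = 0.902). Without zQ175 replicates 1 and 5 they were -1.22 (SE 0.772) and -0.35 (SE 0.186) and the unadjusted count was 0, as it was with the Xist covariate. DESeq2 called none of the 10 in these 4 comparisons.

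The partners of the organizers were examined as a list, and whether they varied less than the ligands was not tested. A list of 17 receptors, partners and family genes outside the 10 was taken, of which 14 passed the filter. None was called by edgeR between zQ175 and WT, where 2 had an unadjusted p under 0.05, beside 13.9% of all genes, and their median difference was 0.03 on the log2 scale. DESeq2 called 1 of the 14 that had an adjusted p, beside 5.26%. Grid1, which encodes a GluD receptor, was at -0.14 (SE 0.0970, adjusted p = 0.561). Grik4, a kainate receptor subunit, was at 0.29 (SE 0.220, adjusted p = 0.603). Cbln3 and C1ql4 were at most at 0.847 and 1.22 CPM and did not pass the filter. C1ql4 had counts in 2 of the 18 libraries, the higher of them zQ175 replicate 1. Between zQ175 and zQ175:CK2a'(+/-) the count called was again 0 by edgeR, with 1 gene at an unadjusted p under 0.05, beside 6.27%, and 0 by DESeq2.

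Since Nptx2 is regulated by neuronal activity, 10 activity-regulated genes were set beside it. 9 passed the filter, and 1, Bdnf, was called between zQ175 and WT (2.72, SE 0.647, adjusted p = 0.0726 by edgeR), beside 1.10% of all genes. Without zQ175 replicate 1 it was 2.52 (adjusted p = 0.117), without replicate 5 it was 2.22 (adjusted p = 0.168), and without both it was 1.55 (SE 0.664, adjusted p = 0.430). With the cortical marker level as a covariate it was 1.87 (SE 0.802, adjusted p = 0.578). Bdnf, a neurotrophin that cortical neurons make and deliver to the striatum, was at 1.74, 1.68, 0.613, 0.755 and 0.324 CPM in WT. In zQ175 libraries it was at 10.1, 3.88, 2.09, 3.03 and 14.5 CPM, and replicates 5 and 1 were again the highest. The other 8 genes of the list were not called, and their values lay between -0.42 (Egr4) and 0.31 (Npas4). The median of the list was 0.01.

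**Figure D4:**
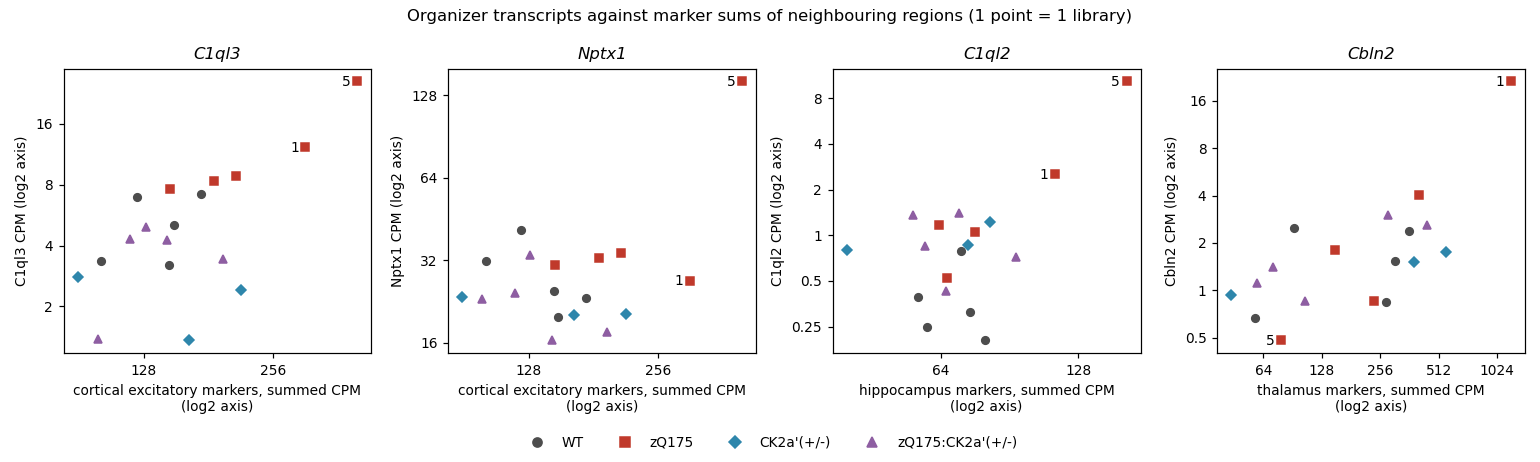
CPM of 4 organizer genes against the summed CPM of the marker list named on each x axis, 1 point for each library, both axes on a log2 scale, with zQ175 replicates 1 and 5 numbered. C1ql3 rises with the cortical excitatory sum across the libraries. Without the numbered libraries r is 0.57 for Nptx1 with the cortical markers and 0.22 for C1ql2 with the hippocampal ones. For Cbln2 with the thalamus markers r is 0.56. Each r uses the mean log2 CPM of the listed genes that passed the filter.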

How the data were processed

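Striatal RNA from 18 mice was sequenced as stranded total RNA (Takara pico kit, paired 50-base reads, NovaSeq). Per the labels and the study's methods the authors used Trimmomatic for trimming and HISAT2 2.1.0 for alignment to GRCm38. They removed duplicated mappings, unmapped reads and alignments of low quality, and deposited raw counts per gene made with Subread 1.6.2. The strand setting of the counting is not given in the sources used here. Gene lengths come from the same table.

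edgeR 4.0.16 (R 4.3.3) was used with TMM scaling, a filter on low counts by genotype and the quasi-likelihood test in 1 fit of 18 libraries with genotype as the only term. P-values were adjusted by Benjamini-Hochberg over 20914 genes and called under 0.1. SEs are the absolute log2 fold change divided by the square root of the test's F. DESeq2 1.42.0 was an alternative. log2 CPM used a prior count of 2. The scripts were tested on simulated data. Total counts of 13612381 to 22702547 per library set the precision, and 1 CPM is about 14 to 23 counts. Replicates are separate mice. The organizer genes and all gene lists were chosen with earlier results of these data known. The 10 genes are named whatever their values, partners, activity-regulated genes and markers come from fixed lists, and the 3 genes most like each organizer gene were those of highest Spearman's rho among all genes tested. Some genes of these lists are not reported here. Alternatives changed the tool, scaling, filter, threshold, covariates, block and libraries.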

Additional observations from a re-analysis of the deposited data

Results flagged for a closer look

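In 30 combinations of a gene with a group of 5 libraries, 7 held a library far from the other 4 by Dixon's test at the level where chance gives about 1 in 20, and the 7 are not independent, since they fall in 2 zQ175 libraries.

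zQ175 replicate 5 was far above the other zQ175 libraries for C1ql2 (10.3 CPM, the next library 2.53), C1ql3 (26.0 CPM, next 12.3) and Nptx1 (144 CPM, next 34.0). zQ175 replicate 1 was far above the others for Cbln1 (14.8 CPM, next 1.599), Cbln2 (21.2 CPM, next 4.06) and Cbln4 (13.5 CPM, next 2.09), and far below them for Adgrb3 (148 CPM, next 175). The cortical and hippocampal marker sums were highest in replicate 5 and the thalamus marker sum was highest in replicate 1, and the part of these tissues in the levels was not tested.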

How the results depend on the processing

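Counts are given in 1 order of comparisons: zQ175 against WT, zQ175:CK2a'(+/-) against WT, zQ175 against zQ175:CK2a'(+/-), CK2a'(+/-) against WT, zQ175:CK2a'(+/-) against CK2a'(+/-), and the interaction. The main counts of genes called were 230, 3, 3, 3, 124 and 1. DESeq2 gave 855, 123, 39, 11, 322 and 19. No filter gave 451, 85, 51, 19, 297 and 10. An adjusted p under 0.05 gave 51, 1, 2, 2, 27 and 0, the Xist covariate 161, 3, 3, 2, 75 and 0, and the robust fit 313, 6, 3, 3, 88 and 1. The cortical covariate gave 0, 3, 1, 2, 120 and 0. Fits of only the 2 groups compared gave 0, 1, 2, 0 and 461, and no such fit exists for the interaction. 3 alternatives were chosen after seeing the data: without zQ175 replicates 1 and 5 the counts were 0, 3, 2, 3, 222 and 0, with the thalamic covariate 456, 118, 12, 3, 535 and 0, and with both covariates 0, 126, 1, 3, 530 and 0. DESeq2's size factors and a filter of 10 counts in 10% of the libraries kept each count within 1.5 times. Leaving out 1 library at a time gave 0 to 587, 1 to 34, 1 to 6, 1 to 9, 6 to 221 and 0 to 2.

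Of the 10 organizer genes, 1 was called between zQ175 and WT. The count was 2 with DESeq2, 5 with no filter, 4 with the thalamic covariate, and 0 with an adjusted p under 0.05, the Xist covariate, the cortical covariate, both marker covariates, the 2 groups alone or without zQ175 replicates 1 and 5. Leaving out 1 library gave 0 to 2, and C1ql3 was called in 6 of those 18 fits (adjusted p of 0.0752 to 0.271). Between zQ175 and zQ175:CK2a'(+/-), leaving out C1ql3, which was chosen for that comparison, it was 0, and also 0 with DESeq2, but 2 with no filter (Nptx1 and Nptxr) and 1 with the thalamic covariate (Nptx1). In the other 4 comparisons it was 0 in each setting. The cause of these changes was not tested.

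Some log2 differences changed sign. Between zQ175 and WT, leaving out zQ175 replicates 1 and 5 gave -0.29 for Cbln1 and -0.83 for Cbln4, the thalamic covariate -0.33 for Cbln4, the cortical covariate -0.0158 for Adgrb3 and -0.59 for Nptx1, and both covariates -0.19 for Nptx1. Between zQ175 and zQ175:CK2a'(+/-), leaving out those 2 libraries gave -0.0667 for C1ql2 and -0.18 for Cbln1, the cortical covariate -0.18 for C1ql2, -0.0852 for Adgrb3 and -0.30 for Nptx1, and both covariates -0.60 for C1ql2. With 1 library left out, values between zQ175 and WT ran from -0.28 to 0.0941 for C1ql1, -0.27 to 1.55 for Cbln1 and -0.83 to 0.75 for Cbln4. Between zQ175:CK2a'(+/-) and WT they ran from -0.11 to 0.17 for C1ql1, -0.27 to 0.0522 for Cbln1 and -0.0725 to 0.41 for Cbln2. Between zQ175 and zQ175:CK2a'(+/-) they ran from -0.30 to 0.0948 for C1ql1, -0.17 to 1.67 for Cbln1, -0.00587 to 1.95 for Cbln2 and -0.00511 to 0.0840 for Adgrb3.

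The replicate numbers did not pair the samples: over 24 same-numbered pairs of libraries, r of their deviations from the group means ran from -0.14 to 0.12, and 2 were over 0.1. The fit with a replicate block called 98, 1, 1, 1, 12 and 1 genes and the same number of organizer genes, 1, between zQ175 and WT (C1ql2, 2.53, adjusted p = 0.0993). It gave 1.18 for C1ql3 and -0.12 for Cbln4 in that comparison, and -0.0194 for C1ql1 between zQ175:CK2a'(+/-) and WT. C1ql2 rests on 3 to 17 counts in each WT library, which limits what depth can show for it.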
